A study of Saccharomyces cerevisiae BY4741 with 16 samples.

Results

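The genes described here make the purine and pyrimidine nucleotides of budding yeast, *Saccharomyces cerevisiae*. A list of 31 genes was fixed by systematic name, namely the *ADE*, *IMD*, *URA* and *PRS* genes, *GUA1* and the kinase genes *GUK1*, *YNK1* and *ADK1*. Of these, 29 had values among the 5218 genes of the deposited table, and *URA6* and *YNK1* are not analysed here. *URA3*, the gene of the ura3D0 label given below, is not on the list. The rule for the list names genes by function and uses no measured value, but the list was proposed with earlier results of these data known.

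Chromatin immunoprecipitation and sequencing measured histone H3 trimethylated at lysine 4 (H3K4me3), which peaks near transcription start sites, and at lysine 36 (H3K36me3), a mark laid down in gene bodies behind elongating RNA polymerase II. Per the series design, the polymerase was removed from the nucleus by anchor-away, a method that uses rapamycin to bind a nuclear target to a ribosomal subunit protein on its way to the cytoplasm. Rapamycin was used at 1 ug/mL, and each mark has 1 immunoprecipitated library for each of 0, 20, 40 and 60 min. All groups came from log-phase MATa BY4741 Anchor-Away cells in YPD, a rich medium, and differed only in mark and time. All are labelled his3D1, leu2D0, ura3D0, tor1D1 and fpr1D, and RPL13-2xFKBP12-NATMX6, and the signal at *FPR1*, given below, goes against fpr1D in some libraries. The labels name no tagged polymerase subunit, and 25% *S. pombe* cells were added as a spike-in. The ura3D0 allele removes orotidine monophosphate decarboxylase, so these cells cannot complete their own uridine nucleotide synthesis and live on uracil from the medium. No later sample lacks rapamycin, so time in rapamycin and loss of the polymerase cannot be told apart.

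New purines are built stepwise on phosphoribosyl pyrophosphate (PRPP) until the ring of inosine monophosphate (IMP) is closed, and IMP is then turned into AMP or GMP. New pyrimidines are built as a free ring, orotate, which is joined to PRPP and becomes UMP and then CTP. Yeast is known to control these genes in several ways. The transcription factors Bas1 and Pho2 activate *ADE* genes when adenine is scarce, and Ppr1 activates several *URA* genes when the pathway's intermediates build up. *IMD2*, *URA2*, *URA8* and *ADE12* are known for start-site choice or early termination, in which transcripts from upstream start sites are ended by the Nrd1, Nab3 and Sen1 proteins while nucleotides are plentiful.

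The deposited signal summed to between 21240 and 24034 over all genes in the 4 H3K4me3 columns and to between 4172 and 6655 in the 4 H3K36me3 columns. What the signal was divided by is not stated, so the scale between times is uncertain. The depth behind it is unknown. Changes are therefore given as log2 changes from 0 min, mostly after subtracting the change of the median gene at that time in that mark, and genes whose mean level over the times was under 25% of the median of such means are left out of such counts. That median gene stood at -0.06, -0.0024 and -0.18 in H3K4me3 and at -0.41, -0.36 and -0.65 in H3K36me3 at 20, 40 and 60 min. No group has a replicate, so no error or test can be given, and every later value is compared with the same 0 min library. At *FPR1*, which the fpr1D label deletes, H3K4me3 was 2.26, 1.34, 3.86 and 1.04 at 0, 20, 40 and 60 min, and H3K36me3 was 1.21, 0.0335, 0.240 and 0.185. The library labelled H3K36me3 at 0 min was thus at percentile 56.0 of all genes there, against 0.0958 at 20 min, and H3K4me3 was highest at 40 min, at percentile 28.0. Whether these libraries come from cells of 1 genotype was not tested, and changes from 20 to 60 min, without the 0 min library, are given for several genes. As a check of the MATa label, the a-specific receptor gene *STE2* was at percentile 80.7 of H3K4me3 at 0 min and the alpha-specific receptor gene *STE3* at percentile 1.69. The a-factor genes *MFA1* and *MFA2*, both very short, were low too, at percentiles 8.39 and 7.44.

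Before rapamycin most nucleotide synthesis genes lay high in both marks, and a few copies lay near the bottom. H3K4me3 ran from 0.351 at *IMD2* to 8.14 at *URA5*, with a median of 5.75, and H3K36me3 from 0.219 at *IMD2* to 3.78 at *URA5*, with a median of 2.00. In H3K4me3, 14 of 29 genes were in the highest 25% of all genes, the share called being 25% by construction. In H3K36me3 it was 18 of 29. The median gene of the list was at percentile 73.5 in H3K4me3 and 82.7 in H3K36me3. Levels of different genes are compared here on the deposited scale, which may not be per length. The genes had a median length of 1491 bp, against 1230 bp for the 5115 genes matched to the R64 table, and across those genes level and length had a Spearman's rho of 0.23 for H3K4me3 and 0.22 for H3K36me3 at 0 min. Whether length adds to their high place was not tested.

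**Figure D1:**
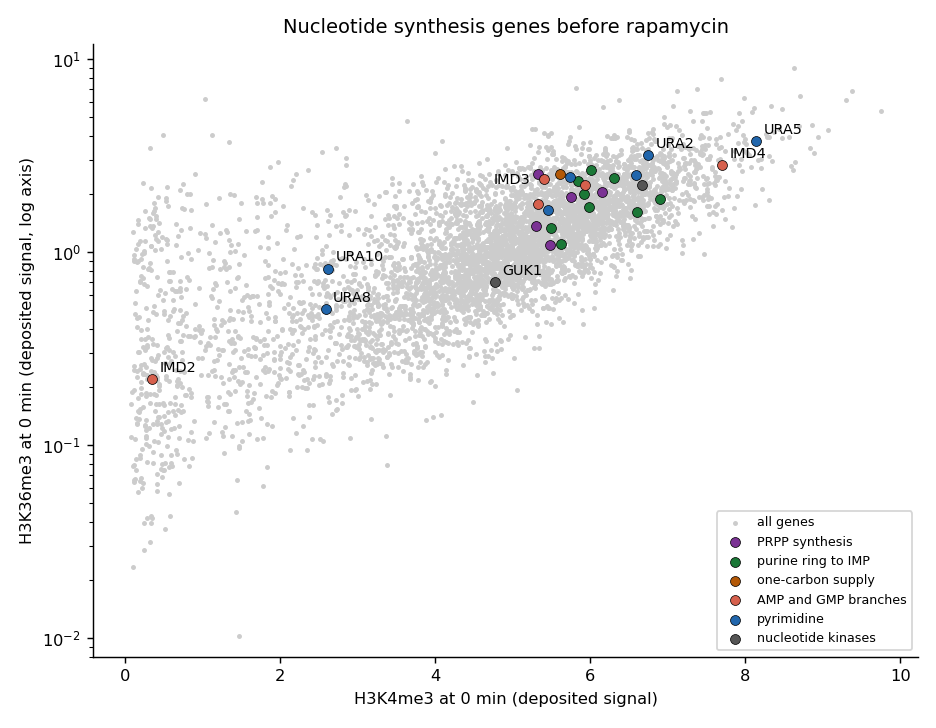
Deposited H3K4me3 signal (x axis, linear) against H3K36me3 signal (y axis, log) at 0 min, 1 point per gene. Grey points are all 5218 genes and coloured points the 29 nucleotide synthesis genes by role. Most coloured points sit at the upper right of the cloud, and *IMD2*, *URA8* and *URA10* sit apart from them at the lower left.

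The copies for one reaction differed most at the IMP dehydrogenases, which commit IMP to GMP. *IMD2* (YHR216W, chromosome VIII, 554396 to 555967 in R64) encodes the form known to resist the drug mycophenolic acid. Its H3K4me3 was 0.351, 0.378, 0.325 and 0.348 at 0, 20, 40 and 60 min, and its H3K36me3 was 0.219, 0.129, 0.163 and 0.116. Both marks were thus near the bottom of the table, at percentiles 2.49 and 4.85 at 0 min, and *IMD2* was the 1 gene of the list below the filter in each mark. *IMD3* (YLR432W, chromosome XII, 1002557 to 1004128), of the same length of 1572 bp, had H3K4me3 of 5.40, 4.88, 4.25 and 3.92, with H3K36me3 at 2.40, 1.43, 1.21 and 0.986. At 0 min *IMD3* was 15.4 times *IMD2* in H3K4me3 and 11.0 times in H3K36me3. *IMD4* (YML056C, chromosome XIII, 162194 to 164176), whose span holds the small nucleolar RNA gene *SNR54*, had H3K4me3 of 7.70, 7.85, 7.76 and 7.10, with H3K36me3 at 2.83, 1.78, 2.01 and 1.84. It was among the highest genes of the whole table in H3K4me3, at percentile 98.7.

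*IMD3* and *IMD4* stood further apart at 60 min than at 0 min. *IMD4* was 1.43 times *IMD3* in H3K4me3 at 0 min and 1.81 times at 60 min, and in H3K36me3 1.18 and 1.86 times. The log2 change of *IMD3* minus that of *IMD4* at 60 min was -0.34 in H3K4me3 and -0.65 in H3K36me3. Relative to the median gene, *IMD3* stood at -0.28 and -0.63 and *IMD4* at 0.07 and 0.02. In the change from 20 to 60 min *IMD3* stood at -0.19 and -0.30. *IMD2*, *IMD3* and *IMD4* are close copies, and *IMD2* has a further inactive copy. How reads that match several of them were counted is not stated, so their levels are uncertain.

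*GUA1*, the GMP synthase gene that follows the IMP dehydrogenases, was close to the median gene in both marks at 60 min, at -0.04 and -0.03. Its H3K36me3 was 2.22, 1.31, 1.70 and 1.39. In that mark it stood at -0.34 relative to the median gene at 20 min, and at 0.30 from 20 to 60 min. On the AMP side *ADE12* (YNL220W, chromosome XIV, 234413 to 235714), for adenylosuccinate synthase, had the lowest H3K4me3 change of the list. Its H3K4me3 was 5.32, 4.30, 4.41 and 3.68, lower at each later time than at 0 min. That is -0.35 relative to the median gene at 60 min, and most of it (-0.24) was there at 20 min. From 20 to 60 min, without the 0 min library, it stood at -0.10. Its H3K36me3 was 1.78, 1.08, 1.09 and 0.956, or -0.24 relative to the median gene. The 4 genes of both branches past the filter had medians of -0.16 in H3K4me3 and -0.14 in H3K36me3 relative to the median gene. The first became -0.03 with no filter, which adds *IMD2*, and -0.28 without *IMD4*, so the value rests on which copies are counted. The second became 0.16 in the change from 20 to 60 min.

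**Figure D2:**
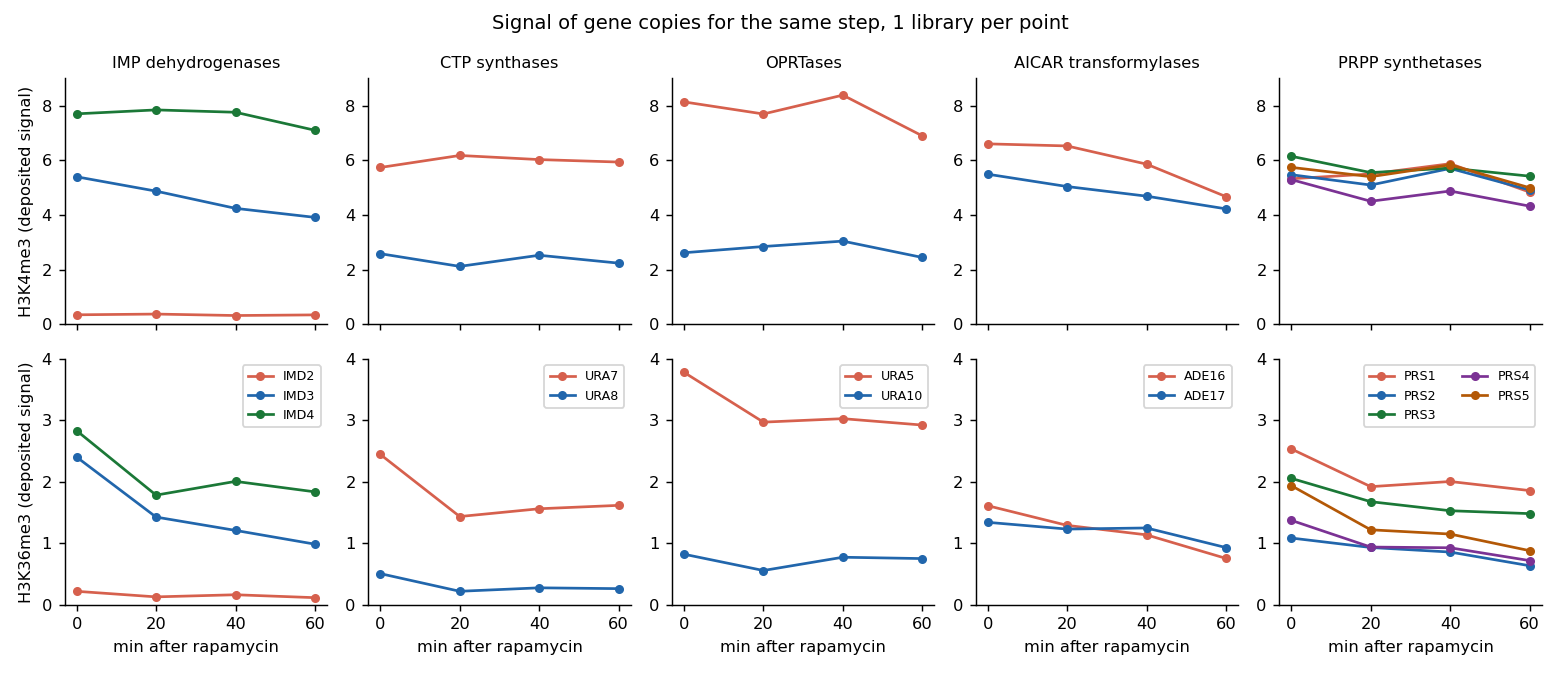
Deposited signal (y axes; H3K4me3 above, H3K36me3 below, each starting at 0) against minutes after rapamycin for gene copies that serve the same step, 1 library per point. OPRTases are orotate phosphoribosyltransferases. *IMD2*, *URA8* and *URA10* lie below their partners at every time in both marks, while *ADE16* crosses *ADE17* in H3K36me3, from 1.61 against 1.34 at 0 min to 0.755 against 0.931 at 60 min.

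The pyrimidine genes showed the same split between a strongly and a weakly marked copy. *URA7* and *URA8* encode CTP synthases and are 1740 and 1737 bp long. *URA7* had H3K4me3 of 5.74, 6.18, 6.03 and 5.94, with H3K36me3 at 2.45, 1.44, 1.56 and 1.62. *URA8* (YJR103W, chromosome X, 620754 to 622490) had H3K4me3 of 2.59, 2.12, 2.53 and 2.24, with H3K36me3 at 0.507, 0.220, 0.276 and 0.263. *URA7* was thus 2.22 times *URA8* in H3K4me3 and 4.82 times in H3K36me3 at 0 min, and 2.65 and 6.16 times at 60 min. The ratios were highest at 20 min, at 2.91 and 6.54, so from 20 to 60 min they fell in both marks. At 20 min *URA8* had the lowest H3K36me3 change of the list, at -0.75 relative to the median gene, and at 60 min it stood at -0.28. *URA7* had the highest H3K4me3 change at 60 min, 0.23 relative to the median gene, or 0.05 as deposited.

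*URA5* and *URA10*, of 681 and 684 bp, encode orotate phosphoribosyltransferases, which join orotate to PRPP. *URA5* had the highest level of the list in both marks at 0 min, with H3K4me3 of 8.14, 7.70, 8.39 and 6.90 and H3K36me3 of 3.78, 2.97, 3.03 and 2.92. In H3K4me3 *IMD4* was above it at 20 and 60 min. *URA10* (YMR271C, chromosome XIII, 806865 to 807548) had H3K4me3 of 2.62, 2.85, 3.05 and 2.45, with H3K36me3 at 0.823, 0.558, 0.773 and 0.752. *URA5* was 3.11 times *URA10* in H3K4me3 and 4.60 times in H3K36me3 at 0 min. The 20 min sample of *URA10* was its lowest in H3K36me3, and at 60 min it had the highest H3K36me3 change of the list, 0.52 relative to the median gene. That value passed 0.5 narrowly: with a pseudocount of 10% of the median, at 40 min or with the mean of the later times, no gene of the list did. From 20 to 60 min *URA10* stood at 0.65.

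*URA4*, for dihydroorotase, was also high relative to the median gene in H3K36me3, at 0.19, 0.42 and 0.42 at the later times. Its levels were 1.66, 1.42, 1.73 and 1.42. *URA1*, for dihydroorotate dehydrogenase, had H3K4me3 of 6.59, 7.52, 6.18 and 5.11, the 20 min sample being the highest, and stood at -0.43 in the change from 20 to 60 min. *URA4* had a like course, with H3K4me3 of 5.46, 6.39, 5.37 and 4.89 and a change of -0.26 from 20 to 60 min. *URA2* encodes the large enzyme for the first pathway steps and is the longest gene here at 6645 bp. Its H3K36me3 was 3.20, 2.00, 2.82 and 1.95, so the 40 min sample stood between the others, and its H3K4me3 was 6.75, 6.48, 6.77 and 6.45. The 7 pyrimidine genes had medians of 0.03 in H3K4me3 and 0.05 in H3K36me3 relative to the median gene at 60 min.

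Of the genes known for start-site choice or early termination, *IMD2* and *URA8* were weakly marked and *URA2* and *ADE12* were not. At 0 min *URA2* was at percentile 92.5 in H3K4me3 and 96.5 in H3K36me3, and *ADE12* at 61.5 and 77.3, against 14.3 and 18.3 for *URA8*. Their H3K36me3 changes at 60 min relative to the median gene were -0.07 at *URA2*, -0.24 at *ADE12* and -0.28 at *URA8*. Each was less than 0.5 from the median gene. From 20 to 60 min, without the 0 min library, these genes stood above it, at 0.19, 0.05 and 0.47. The termination factor genes themselves differed from one another. *NRD1*, a gene that is not of this list, had H3K4me3 of 5.14, 5.32, 7.69 and 7.46, with H3K36me3 at 2.70, 2.15, 3.43 and 2.73, which is 0.71 and 0.66 above the median gene at the last time. *NAB3* had H3K4me3 of 7.99, 8.64, 8.0 and 6.73, while H3K36me3 stood at 3.86, 2.47, 2.57 and 2.32, or -0.06 and -0.08. *SEN1* had H3K4me3 of 5.84, 4.46, 5.87 and 5.64, and its H3K36me3 was 1.05, 1.22, 1.02 and 0.917, or 0.13 and 0.45.

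The *ADE* genes that build the purine ring were strongly marked as a group, and their changes at 60 min lay on both sides of the median gene. In order of the pathway, *ADE4*, for the amidotransferase that starts it, had H3K36me3 of 2.34, 1.69, 1.34 and 0.980, lower at each sample. It stood at -0.05, -0.44 and -0.60 relative to the median gene, while its H3K4me3 stayed close to it at 0.02 (5.84, 5.97, 5.66 and 5.22). *ADE5,7*, a fused gene for 2 steps of the pathway, had H3K36me3 of 2.43, 1.44, 1.11 and 1.45. Its 40 min sample was the lowest, at -0.77 relative to the median gene, and at 60 min it stood at -0.09. Its H3K4me3 was 6.30, 6.11, 6.95 and 6.37, or 0.20 relative to the median gene.

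Further along, *ADE8*, the third enzyme's gene, was the most strongly H3K4me3-marked of the ring-building genes, at 6.90, 7.40, 7.45 and 6.62. *ADE6*, for the amidotransferase of the next step and 4077 bp long, had the lowest H3K36me3 of them at 0 and 20 min, with 1.10, 1.03, 1.18 and 0.888. Its 40 min sample was the highest, and it stood at 0.34 relative to the median gene at 60 min. Most of that (0.31) was there at 20 min, and from 20 to 60 min *ADE6* stood at 0.02. Its H3K4me3 was 5.62, 5.35, 4.98 and 4.34, lower at each sample, or -0.19. *ADE2*, whose loss colours yeast colonies red, had H3K4me3 of 5.98, 5.69, 5.73 and 5.97, nearly equal at both ends, and stood at 0.18. *ADE1*, the next gene, was close to the median gene in H3K4me3 (-0.03) and at -0.15 in H3K36me3. *ADE13*, whose lyase acts both in ring building and in making AMP, stood at 0.20 and 0.16, with H3K4me3 of 5.92, 6.27, 6.45 and 5.98.

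*ADE16* and *ADE17*, copies of 1776 and 1779 bp for the final steps to IMP, stood in the same ratio in both marks at 0 min. Their changes from 0 to 60 min differed more in H3K36me3, the mark with the wider spread over genes. *ADE16* had H3K4me3 of 6.61, 6.53, 5.86 and 4.68, with H3K36me3 at 1.61, 1.29, 1.14 and 0.755. *ADE17* had 5.50, 5.04, 4.69 and 4.23 and 1.34, 1.23, 1.25 and 0.931. *ADE16* was 1.20 times *ADE17* in both marks at 0 min, and at 60 min 1.11 times in H3K4me3 and 0.811 times in H3K36me3. The log2 change of *ADE16* minus that of *ADE17* was -0.12 in H3K4me3 and -0.56 in H3K36me3. Relative to the median gene at 60 min, *ADE16* stood at -0.31 and -0.44 in the 2 marks and *ADE17* at -0.19 and 0.12. From 20 to 60 min, without the 0 min library, *ADE16* stood at -0.36 and -0.54 and *ADE17* at -0.13 and -0.17. The 9 ring-building genes had medians at 60 min of 0.02 in H3K4me3 and -0.02 in H3K36me3 relative to the median gene.

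*ADE3* (YGR204W, chromosome VII, 905934 to 908774) encodes a folate enzyme that supplies the one-carbon units put into the purine ring, and it had the lowest H3K36me3 change of the list. Its H3K36me3 was 2.54, 1.37, 1.11 and 0.694, lower at each sample, and its place among all genes went from percentile 91.2 to 49.4. Relative to the median gene it stood at -0.47, -0.83 and -1.21, and at -0.75 from 20 to 60 min. Its H3K4me3 was 5.61, 6.05, 5.66 and 4.20, so that mark was lower only in the 60 min sample, at -0.23. Of the other folate genes, *MIS1*, for the mitochondrial counterpart of the same enzyme, stood at -0.41 in H3K36me3 at 60 min. From 20 to 60 min it stood at -0.24. *SHM2* stood at -0.14 and *SHM1* at 0.0011 at 60 min, and *MTD1* was below the filter in that mark. *DFR1*, for dihydrofolate reductase, stood at 0.65, with levels of 0.461, 0.441, 0.455 and 0.463.

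The 5 *PRS* genes encode PRPP synthetase subunits, which feed both pathways. They had like H3K4me3 at 0 min, from 5.30 at *PRS4* to 6.15 at *PRS3*, and changes at 60 min from -0.11 at *PRS4* to 0.05 at *PRS1* relative to the median gene. *PRS1* had H3K4me3 of 5.33, 5.50, 5.88 and 4.84, and *PRS5* had 5.75, 5.40, 5.84 and 5.00. *PRS2* had 5.48, 5.10, 5.71 and 4.92, *PRS3* had 6.15, 5.55, 5.72 and 5.42, and *PRS4*, the lowest at each time, had 5.30, 4.51, 4.88 and 4.33. Their H3K36me3 differed more. *PRS1* had 2.53, 1.92, 2.01 and 1.86, and *PRS5* had 1.94, 1.22, 1.15 and 0.880. The ratio of *PRS1* to *PRS5* was 1.31 at 0 min and 2.11 at 60 min, when they stood at 0.20 and -0.48 relative to the median gene. *PRS3* was at 2.06, 1.68, 1.53 and 1.48, *PRS4* at 1.37, 0.939, 0.927 and 0.719, and *PRS2* at 1.09, 0.932, 0.858 and 0.635. *PRS3* thus stood at 0.18, *PRS2* at -0.12 and *PRS4* at -0.28.

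Both kinase genes with values were near their 0 min H3K4me3 level at 60 min. *ADK1*, for the adenylate kinase that balances AMP, ADP and ATP, had H3K4me3 of 6.67, 6.36, 6.92 and 6.56, with H3K36me3 at 2.23, 1.60, 2.06 and 1.89. It stood at 0.16 and 0.41 relative to the median gene. *GUK1*, for guanylate kinase, had H3K4me3 of 4.77, 4.49, 5.19 and 4.70, with H3K36me3 at 0.697, 0.410, 0.389 and 0.410, or 0.16 and -0.10.

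**Figure D3:**
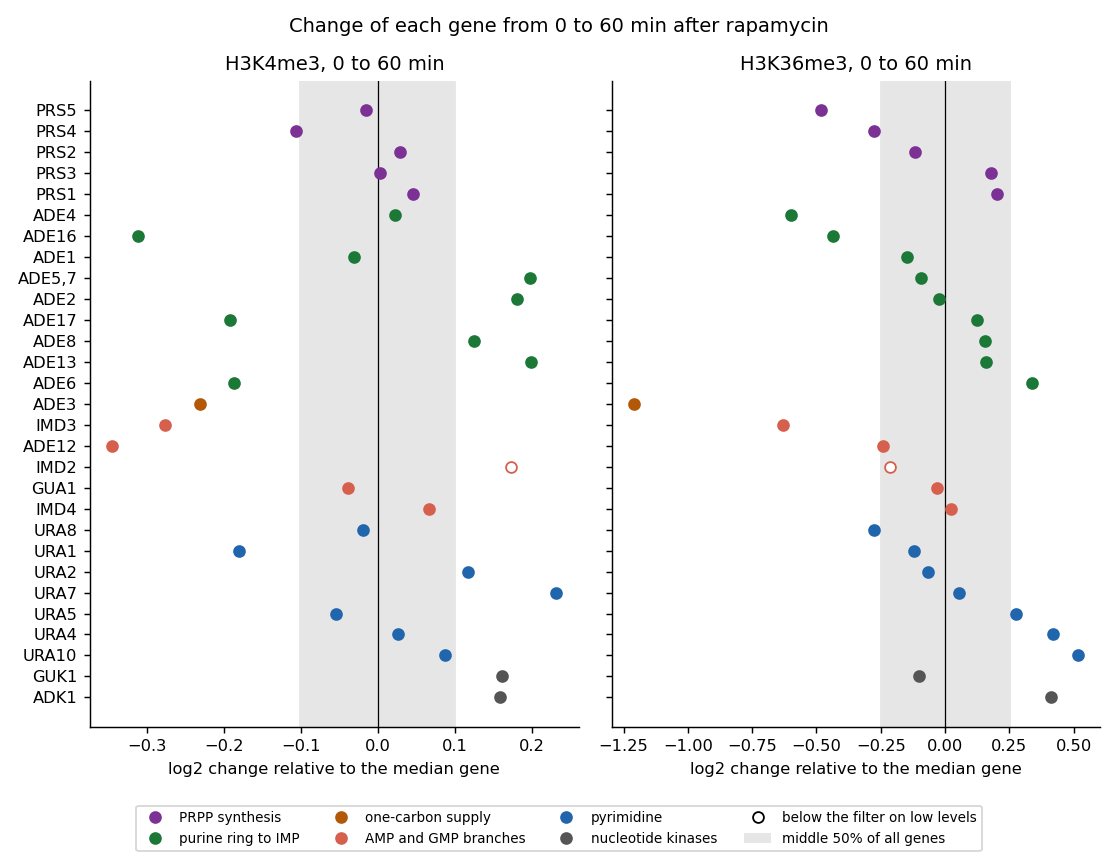
Log2 change from 0 to 60 min minus that of the median gene (x axes) for each of the 29 genes, in H3K4me3 (left) and H3K36me3 (right), ordered by role and, within a role, by H3K36me3. Grey bands hold the middle 50% of all genes past the filter, and the open circle is *IMD2*, below the filter. *ADE3* at -1.21 in H3K36me3 lies farthest from the median gene, and the genes of each larger role lie on both sides of it.

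Over the 28 genes past the filter in each mark, the medians of change lay close to those of all genes. Its median change at 60 min was -0.17 in H3K4me3 and -0.70 in H3K36me3 as deposited, which is 0.01 and -0.05 relative to the median gene. In H3K36me3, 3 of 28 genes (*ADE3*, *IMD3* and *ADE4*) were more than 0.5 below the median gene, where 10.2% of all 4861 genes were. Above it by more than 0.5 was 1 of 28 (*URA10*), where 9.87% of all genes were. In H3K4me3 the spread over genes is narrower and a limit of 0.25 was used. Below it by more than that were 3 of 28 genes (*ADE12*, *ADE16* and *IMD3*), where 5.41% of all 4826 genes were, and 0 of 28 were above, where 5.53% were. *ADE16* passed that limit at 60 min and not at 40 min (-0.17), and with the mean of the later times only *ADE12* did. *ADE4* passed in H3K36me3 at 60 min and not at 40 min.

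At 20 min 18 of the 28 genes were below the median gene in H3K36me3, where 50% of all genes were by definition, and the list's median stood at -0.10. At 40 and 60 min 15 and 16 were. From 20 to 60 min the median of the list stood at 0.15, with *ADE3* lowest at -0.75 and *URA10* highest at 0.65. The genes below the median gene at all 3 later times were 11 of 28, where 33.2% of all genes were: *ADE3*, *ADE4*, *ADE5,7*, *ADE12*, *IMD3*, *GUA1*, *URA1*, *URA8*, *PRS4*, *PRS5* and *GUK1*. Above it at all 3 were 6 of 28, where 32.9% of all genes were: *ADE6*, *ADE13*, *ADE17*, *URA4*, *URA5* and *PRS1*.

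**Figure D4:**
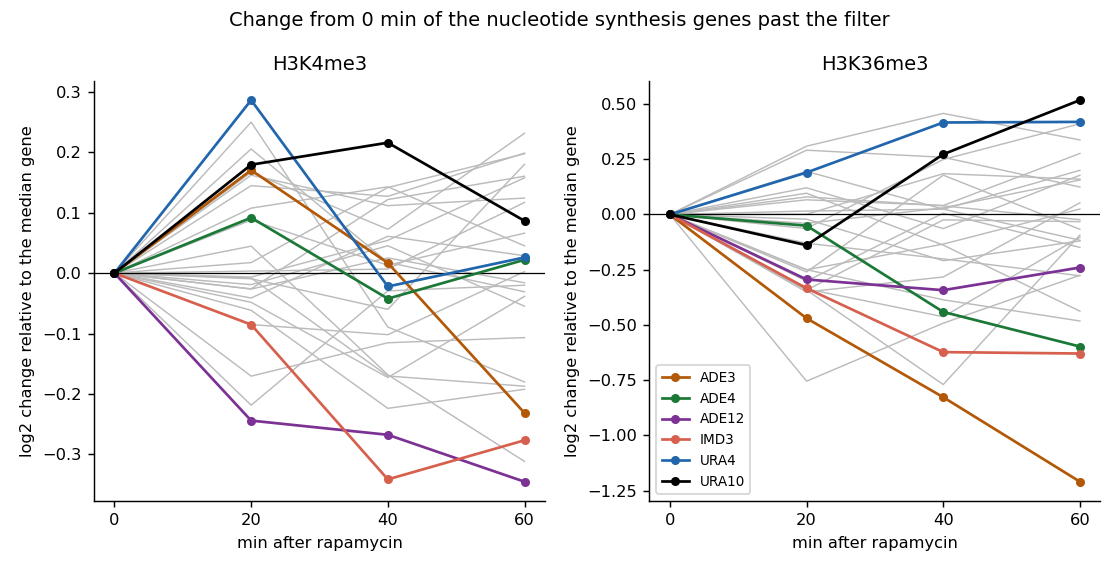
Log2 change from 0 min minus that of the median gene (y axes) against minutes after rapamycin for the 28 genes past the filter, H3K4me3 left and H3K36me3 right. Grey lines are genes not named in the key. *ADE3* runs down to -1.21 in H3K36me3 while *URA4* and *URA10* end at 0.42 and 0.52, and *ADE12* runs lowest in H3K4me3 at 20 and 60 min.

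In H3K36me3 at 20 min *URA8* alone was more than 0.5 below the median gene, where 8.97% of all genes were, and 0 of 28 were above, where 8.23% were. At 40 min *ADE3*, *ADE5,7* and *IMD3* were below, where 9.48% of all genes were, and 0 of 28 above, where 8.91% were. In H3K4me3 at 20 min 0 of 28 were more than 0.25 below, where 3.94% of all genes were, and *URA4* was above, where 4.21% were. At 40 min *ADE12* and *IMD3* were below, where 2.84% of all genes were, and 0 of 28 above, where 3.07% were. *ADE5,7*, *ADE8*, *ADE13*, *IMD4*, *URA2*, *URA7*, *URA10* and *PRS1* were above the median gene in H3K4me3 at all 3 later times, 8 of 28, where 26.3% of all genes were. Below it at all 3 were *ADE6*, *ADE12*, *ADE17*, *IMD3*, *GUA1*, *URA8* and *PRS4*, 7 of 28, where 26.5% were.

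Directions against 0 min itself depend on the scale of each library. As deposited, 28 of 28 genes had lower H3K36me3 at 60 min than at 0 min (95.2% of all genes did), and 16 and 17 did when columns were scaled to equal totals or to the lowest 5% of genes. In H3K4me3, 25 of 28 were lower as deposited (88.7% of all genes), with *ADE5,7*, *ADE13* and *URA7* as the exceptions, and 14 and 7 were lower under these scalings. At 20 min 28 of 28 were lower in H3K36me3 as deposited (88.4% of all genes) and 17 of 28 in H3K4me3 (67.4%). At 40 min 26 of 28 were lower in H3K36me3 (84.3%), with *ADE6* and *URA4* as the exceptions, and 13 of 28 in H3K4me3 (50.7%). Lower at all 3 later times were 26 of 28 in H3K36me3 (79.6%) and 10 of 28 in H3K4me3 (41%). At 60 min the scalings moved the median of all genes by 0.67 and 0.61 in H3K36me3 and by 0.17 and 0.30 in H3K4me3. The changes of both marks at 60 min had a Spearman's rho of 0.44 across the 28 genes and 0.18 across 4657 genes past both filters. This is a description across genes, which share their libraries and are not replicates.

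The pathway's other genes, a list of 34 for salvage, uptake, deoxynucleotides, folate, regulators and termination, had 32 with values. In H3K36me3, 3 of 31 past the filter were more than 0.5 below the median gene at 60 min, where 10.2% of all genes were, and 3 of 31 above, where 9.87% were. Each is 9.68% of the list, near the share over all genes, so the genes named next are a description. *ISN1*, for an IMP nucleotidase, stood at -0.85, with levels of 1.07, 0.427, 0.464 and 0.371. *ADO1*, for adenosine kinase, stood at -0.72, with 1.91, 0.917, 0.847 and 0.734. *AMD1*, for AMP deaminase, stood at -0.68, with 2.23, 1.08, 1.16 and 0.883. In each of them most of the difference was there at 20 min. From 20 to 60 min, without the 0 min library, *ISN1* stood at 0.03, *ADO1* at -0.09 and *AMD1* at -0.06. Their low place thus rests on the comparison with the 0 min library.

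Above the median gene, *URH1*, for uridine nucleosidase, stood at 1.00, with H3K36me3 of 0.587, 0.473, 0.726 and 0.755, and *NRD1* and *DFR1* followed as given above. In H3K4me3, 0 of 32 were more than 0.25 below the median gene, where 5.41% of all genes were, and 4 of 32 above, where 5.53% were: *NRD1* (0.71), the ribonucleotide reductase gene *RNR1* (0.40), *DFR1* (0.28) and the adenine phosphoribosyltransferase copy *APT2* (0.26). *RNR1* had H3K4me3 of 2.62, 2.73, 3.17 and 3.06. The lowest were the uridine permease gene *FUI1* at -0.22, with 4.92, 4.82, 4.50 and 3.70, and *ADO1* at -0.21, with 5.72, 5.05, 5.19 and 4.35. The 32 genes had medians of 0.04 in H3K4me3 and 0.0011 in H3K36me3 relative to the median gene. At 0 min 11 of 32 were in the highest 25% of H3K36me3, against 18 of 29 of the synthesis genes, and none of the 7 deoxynucleotide genes was.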

How the data were processed

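Chromatin immunoprecipitation sequencing of H3K4me3 and H3K36me3 covered 16 libraries, 8 immunoprecipitated and 8 input, at 4 times. The deposited table holds 1 signal value per gene, mark and time; how the authors normalised this signal, and whether they used the spike-in, the inputs, gene length or strand, is not given in the sources used here. Its columns name mark and time but no library type and were taken as the immunoprecipitated libraries; inputs are not analysed here. The builds sacCer3 and ASM294v2 and the tools bedtools, Bowtie2 and SAMtools are named per the submitters' processing notes, with no version or role. Depth is unknown, so no counting interval can be given.

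Of 5222 lines, 3 were blank and 1 gene had no values, leaving 5218 genes. Names and coordinates came from the R64 table of RefSeq, which matched 5115 genes and not the other 103. Changes are log2((later + pseudocount)/(earlier + pseudocount)), with a pseudocount of 1% of the mark's median at 0 min (0.0491 for H3K4me3, 0.0108 for H3K36me3), which understates the change of genes with little signal. Genes with a mean over the times under 25% of the median of such means (1.17 and 0.219) were left out, which kept 4826 and 4861 genes, and the median change of these was subtracted. Genes were counted past 0.25 (H3K4me3) or 0.5 (H3K36me3) from it. With 1 library per group there are no p-values. Alternatives were other pseudocounts, no filter, other scalings, other start or end libraries, and overlapping genes left out. Scripts used Python 3.11.15, pandas 2.3.3, NumPy 2.4.6, SciPy 1.17.1 and Matplotlib 3.10.9 and were tested on simulated data.

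Values at all times are given for the 5 lowest and 5 highest genes per mark at 60 min, gene copies and genes known for start-site choice or early termination, for the 2 lowest and 2 highest related genes per mark, and for *NRD1*, *NAB3* and *SEN1*. The other genes whose values at all times are given were chosen after their values were seen. The members and lists were chosen with earlier results of these data known.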

Additional observations from a re-analysis of the deposited data

How the results depend on the processing

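Among the values of single genes, 454 moved by less than the spread of all genes (0.5 times the interquartile range, 0.10 in H3K4me3, 0.25 in H3K36me3) under an alternative and 48 by more. Those that moved by more all came from other start or end libraries. From 20 to 60 min, without the 0 min library, 12 of 28 moved in each mark. At 40 min 9 of 28 moved in H3K4me3 and 5 of 28 in H3K36me3, and with the mean of the later times 4 and 6. The other alternatives moved 0, and a scale factor largely cancels in values relative to the median gene. The median H3K4me3 change of the list as deposited, -0.17, became 0.0019 with equal totals, 0.13 with the lowest 5% of genes as the scale and 0.0075 at 40 min, all of the other sign, and -0.060 with the mean of the later times. The H3K36me3 median, -0.70, became -0.026 with equal totals, -0.087 with the lowest 5%, -0.077 from 20 to 60 min and -0.40 at 40 min. The H3K4me3 change of *URA7* minus that of *URA8*, 0.25, became -0.13 from 20 to 60 min. The AMP and GMP branch median became -0.033 with no filter and -0.28 without overlapping genes in H3K4me3, and 0.16 from 20 to 60 min in H3K36me3. The kinase median in H3K36me3, 0.15, became -0.11 at 40 min. The mean of the later times left 1 gene below the H3K4me3 limit, and 0 genes were above the H3K36me3 limit with a pseudocount of 10%, at 40 min or with the mean of the later times. The causes were not tested. No paired analysis was possible because each mark and time has 1 library. Without depth or replicates, no difference here can be set against sampling or culture error.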

Other observations

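Genes next to the nucleotide synthesis genes often had other values, on the deposited scale. *HTA1*, a histone H2A gene 557 bp upstream of *ADK1*, had H3K4me3 of 1.60, 2.15, 3.31 and 3.70, with H3K36me3 at 0.204, 0.339, 0.480 and 0.536 at 0, 20, 40 and 60 min. It stood at 1.37 and 1.99 relative to the median gene at 60 min, where *ADK1* stood at 0.16 and 0.41. *SKY1*, 750 bp upstream of *GUA1* and on the other strand, had H3K36me3 of 5.51, 2.78, 3.23 and 2.48, or -0.50, against -0.03 for *GUA1*. *TDA10*, 438 bp downstream of *ADE3*, had H3K36me3 of 1.40, 0.853, 1.03 and 0.752, or -0.24, against -1.21 for *ADE3*.

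In change at 60 min some other neighbours stood nearer to the gene beside them. Those named here were chosen after their values were seen, and how many neighbours stood near was not counted. *YLR419W*, 1049 bp upstream of *URA4*, stood at 0.47 in H3K36me3, against 0.42 for *URA4*. *RPN13*, 210 bp downstream of *URA4* and on the other strand, stood at 0.42. In H3K4me3 *YLR419W* stood at 0.12 and *RPN13* at -0.19, against 0.03 for *URA4*. *POP1*, 717 bp upstream of *ADE12* and on the other strand, had H3K4me3 of 7.33, 6.08, 6.17 and 5.61, or -0.20, against -0.35 for *ADE12*. *ALG9*, 281 bp downstream of *ADE12*, went the other way, at 0.24 in H3K4me3. *RRN9*, 441 bp downstream of *URA10*, stood at 0.45 in H3K36me3, against 0.52 for *URA10*. *SCS7*, 2074 bp upstream of *URA10*, stood at 0.26. In level, *SOD1*, 59 bp downstream of the weakly marked *URA8*, had H3K36me3 of 1.93 at 0 min, against 0.507 for *URA8*. The nearest gene with values upstream of *IMD2* was *YHR210C*, 32658 bp away, and *IMD2* ends 6080 bp before the last annotated base of its chromosome.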
